A study of Mus musculus and Homo sapiens with 22 samples.

Results

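PROX1 peaks were examined around 8 genes of fatty acid oxidation: Cpt1a, Cpt2, Acadvl, Acadl, Acadm, Hadha, Hadhb and Ehhadh. A peak was counted for a gene when its summit, the position of highest significance, lay in the gene body or within 20 kb of it. The 8 genes were picked by name out of 21951 protein-coding genes of the mouse and, under the same symbols in capitals, 20046 of the human. All 8 were found in each annotation. Their windows held 57 of 50159 peaks in liver, 29 of 40531 in mouse embryonic fibroblasts (MEFs) and 16 of 14369 in Hep3B, a human hepatocellular carcinoma line.

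Fatty acids enter mitochondria as carnitine esters and are then shortened in repeated rounds of dehydrogenation, hydration, a further dehydrogenation and thiolysis. CPT1A on the outer and CPT2 on the inner mitochondrial membrane run the carnitine step, the enzymes encoded by Acadvl, Acadl and Acadm start the cycle on very long, long and medium chains, and the products of Hadha and Hadhb form the trifunctional protein that completes it on long chains. EHHADH is a bifunctional enzyme of peroxisomes, which carry out an oxidation of their own. In the fasted liver the acetyl-CoA that results is turned into ketone bodies, a pathway that is switched on by the nuclear receptor PPARα. None of the 8 genes encodes an enzyme of ketone body synthesis itself, so those genes are described further on from a separate list.

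PROX1 is a homeodomain transcription factor of hepatocytes. Its sites were mapped by CUT&RUN, in which an antibody tethers a nuclease to chromatin and the DNA it releases is sequenced, and the question here was where such sites lie around genes of 1 metabolic pathway. The series held 22 samples. Wild-type C57BL/6J mice aged 2 to 3 months gave liver nuclei, which were labelled as hepatocytes and treated with an antibody to the animals' own PROX1 (5 samples) or with IgG (5). Wild-type C57BL/6N MEFs carried lentiviral rtTA and a tetO-driven FLAG-tagged mouse Prox1 and received 2 µg/ml of doxycycline for 2 days before FLAG (3) or IgG (3) samples were taken. Hep3B cells carried an inducible human PROX1 on a lentivirus that was selected with puromycin, and were likewise induced for 2 days (3 FLAG, 3 IgG). In both cultures the tagged factor thus came from a transgene under doxycycline control.

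The 3 lists analysed each pool the antibody samples of a group and give 1 value per peak, so neither a spread between samples nor a test can be given, and the depth of a sample is unknown. Shares carry 95% Wilson intervals, which cover counting error only. Peaks are given by the authors' −log10 p at the summit and by their percentile, the share of peaks in the same list with a value at or below it (100 is strongest). Such values are not comparable between lists: over the liver, MEF and Hep3B lists the median −log10 p was 12.2, 5.96 and 6.44. Between liver and either culture the tissue, the antibody, the source of PROX1, the number of pooled samples and the smallest peak area kept in the list all changed, for Hep3B the species as well, and their effects cannot be told apart. By promoter peaks, the liver list held 4 of 4 hepatocyte genes (Alb, Ttr, Hnf4a, Apoa1) and 0 of 4 fibroblast genes (Col1a1, Col1a2, Twist2, Prrx1). MEFs held 0 and 4 of these, and Hep3B 0 and 1 (COL1A1), so that the hepatocyte genes lacked such peaks in the carcinoma cells.

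The strongest liver peaks of 6 of the windows are shown first, each with 50 bases on both sides of the summit, because they are where the endogenous factor gave its highest values near these genes. Sequences are those of the reference mouse genome (RefSeq GRCm38.p6, mm10 coordinates, plus strand). Capitals mark AGGTCA, the 6-base motif that many nuclear receptors recognise, or its reverse complement TGACCT. The strongest peak of the Acadm window is not shown, since it overlaps an untranslated exon of the neighbouring gene Rabggtb. Hadha and Hadhb lie side by side and share theirs.
Cpt1a intron, chr19:3325589-3325689: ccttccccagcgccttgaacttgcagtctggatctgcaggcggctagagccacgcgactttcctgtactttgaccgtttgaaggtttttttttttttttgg
Cpt2 intron, chr4:107922068-107922168: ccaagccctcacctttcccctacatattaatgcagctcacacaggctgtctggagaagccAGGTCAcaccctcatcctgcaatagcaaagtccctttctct
Acadvl promoter, chr11:70015443-70015543: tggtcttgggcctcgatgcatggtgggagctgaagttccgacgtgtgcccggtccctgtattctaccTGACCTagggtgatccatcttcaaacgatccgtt
Acadl promoter, chr1:66862696-66862796: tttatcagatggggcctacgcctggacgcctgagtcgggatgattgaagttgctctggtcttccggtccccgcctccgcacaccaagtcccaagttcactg
Hadha intron, chr5:30152000-30152100: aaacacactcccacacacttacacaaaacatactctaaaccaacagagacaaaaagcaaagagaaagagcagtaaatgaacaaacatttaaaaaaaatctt
Of these 5 stretches, those at Cpt2 and Acadvl held 1 copy of the motif each and the other 3 held 0.

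In liver, every one of the 8 genes had a peak in its window, and 5 of them (Cpt1a, Acadm, Hadha, Hadhb and Ehhadh) had 10 or more. Over all protein-coding genes, 57.4% had at least 1 liver peak and 7.98% had at least 10. The 8 genes had a median of 10 peaks in liver, 3 in MEFs and 1.5 in Hep3B, beside medians of 1, 2 and 1 over all genes. Per 100 kb of window, which takes the length of the genes into account, the medians were 12.4, 3.89 and 1.40 for the 8 genes and 1.52, 2.64 and 1.04 for all genes. Neighbouring windows share peaks, so these genes are not independent of each other.

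**Figure D1:**
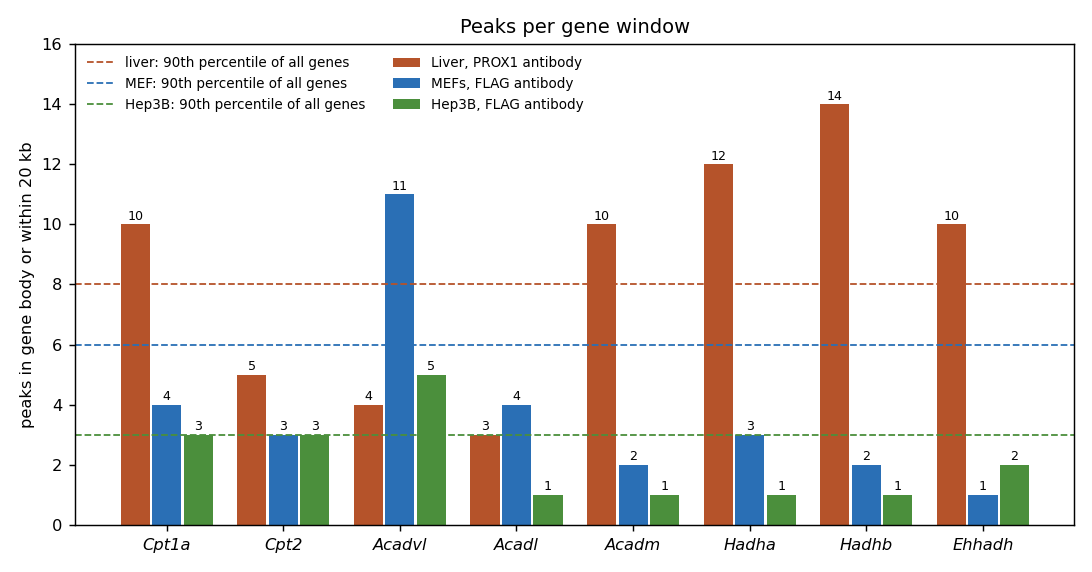
Number of peaks with a summit in the gene body or within 20 kb (vertical axis) for each gene, as bars for liver, MEFs and Hep3B with the number above each bar. Dashed lines give the 90th percentile over all protein-coding genes of each list (8, 6 and 3 peaks); 5 genes stand above the line in liver, Acadvl does so in MEFs and in Hep3B.

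In MEFs and Hep3B a window peak was likewise present for 8 of 8 genes, beside 75.5% and 62.6% of all genes. The nearest start of a protein-coding transcript belonged to one of the 8 genes for 43 of 57 liver peaks (75.4%, interval 62.9 to 84.8), for 10 of 29 MEF peaks (34.5%, 19.9 to 52.7) and for 7 of 16 Hep3B peaks (43.8%, 23.1 to 66.8). In MEFs and Hep3B most peaks of the windows thus sat closer to the start of another gene. Counted per gene and peak, so that a peak of overlapping windows enters once for each, the nearest start was that of the gene itself in 63.2% of 68 pairs in liver, 33.3% of 30 in MEFs and 41.2% of 17 in Hep3B. Over the windows of all protein-coding genes the same share was 60.8%, 53.6% and 50.3%, so the liver share was near that of any gene and the shares of the cultures were below it. The Acadvl window alone gave 11 of the 30 MEF pairs, 10 of them nearest to another gene. It also gave 5 of the 17 Hep3B pairs, all 5 nearest to another gene. Within 1 kb of any such start lay 14 liver peaks, 21 MEF peaks and 15 Hep3B peaks. In liver 9 of these 14 were at one of the 8 genes, in MEFs 7 of 21 and in Hep3B 6 of 15. Per gene and peak these were 9 of 15, 7 of 22 (31.8%) and 6 of 16 (37.5%), beside 49.1%, 47.0% and 46.7% over the windows of all genes.

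**Figure D2:**
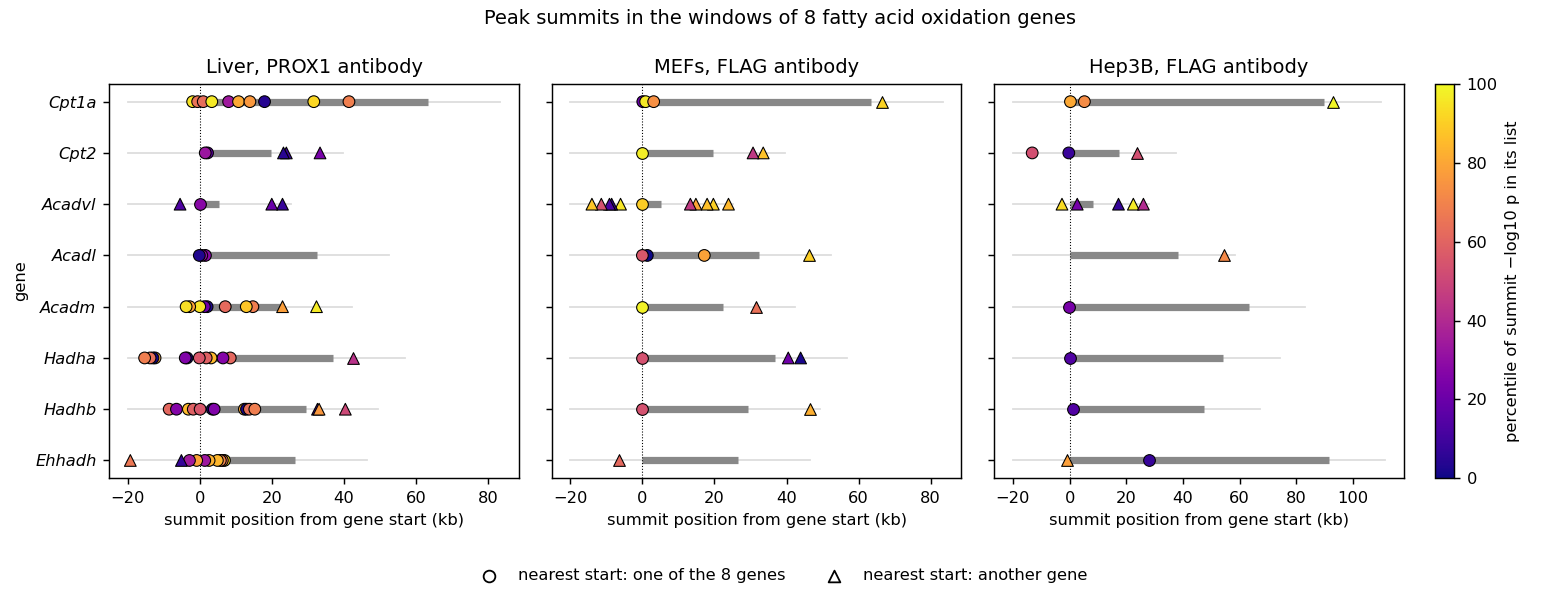
Position of each peak summit relative to the annotated start of the gene (horizontal axis, kb, positive in the direction of transcription) in liver, MEFs and Hep3B, coloured by the percentile of its −log10 p within the list. Grey bars are gene bodies and thin lines the 20 kb on each side. Circles are peaks whose nearest coding start belongs to one of the 8 genes, triangles those nearest to another gene. A peak in the windows of both Hadha and Hadhb is drawn in both rows. With each peak counted once, 43 of 57 liver peaks and 10 of 29 MEF peaks are circles.

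Cpt1a encodes the rate-limiting enzyme of fatty acid entry into mitochondria. Its liver window (gene at chr19:3322334-3385733, plus strand) held 10 peaks, all of them nearest to a Cpt1a start, and 7.98% of genes had as many. The highest −log10 p, 20.7 (percentile 96.3), belonged to an intronic peak at chr19:3324867-3327149, 2283 bp wide, with its summit 3305 bp into the gene. A peak 2010 bp upstream of the gene followed with 20.0 (95.1), and an intronic peak 31617 bp into the gene had 18.7 (91.9). The 3 peaks within 1 kb of a coding start were lower, with percentiles of 64.9, 62.9 and 80.8, the last of them at an internal start 10729 bp into the gene. In liver the promoter of Cpt1a therefore carried peaks, but the strongest ones flanked it.

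In MEFs the same gene had 4 peaks, and the strongest was at a coding start, 48 bp away (−log10 p of 9.08, percentile 96.5). The others were a weak promoter peak (19.1), an intronic peak (73.5) and a peak 66478 bp from the gene start, beyond its end, that lay 45 bp from the start of Tesmin (91.1). Hep3B showed 3 peaks. Those at CPT1A starts had percentiles of 80.1 and 72.4, whereas the one with the highest value, 9.27 (99.0), lay 66 bp from the start of TESMIN. The neighbour Tesmin thus carried a peak in the window in both cultures, and none of the 10 liver peaks was nearest to it.

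Cpt2, whose product releases the fatty acid from carnitine inside the mitochondrion, had 5 liver peaks (gene at chr4:107903981-107923610, minus strand). The strongest, at chr4:107921894-107922216, reached a −log10 p of only 10.8 (percentile 33.2) in an intron, 1427 bp from the nearest Cpt2 start, and another intronic peak stood at 17.1. The remaining 3 (4.38 to 23.1) were nearest to the neighbour 0610037L13Rik. Cpt2 was the only one of the 8 genes with no liver peak within 1 kb of a coding start. MEFs showed the opposite arrangement: a promoter peak 45 bp from the start reached 9.33 (97.4), and the other 2 peaks were at 0610037L13Rik. In Hep3B the CPT2 promoter peak was weak (8.58), a peak 13188 bp upstream reached 53.0, and the strongest, at 53.1, lay 10 bp from the start of CZIB, on the far side of the gene.

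Acadvl encodes the very-long-chain acyl-CoA dehydrogenase of the inner mitochondrial membrane and is a short gene in a dense neighbourhood (chr11:70010183-70015411, minus strand). In liver it had 4 peaks, all in the lower part of the list. Its own promoter peak, at chr11:70015302-70015559, stood at 28.0 (−log10 p of 10.4), 85 bp from the start, and those nearest to Phf23, Dlg4 and Gabarap at 19.7, 13.2 and 7.44. In MEFs the window held 11 peaks, a number that 1.71% of genes reached, and 10 of the 11 were nearest to Dlg4 (5), Dvl2 (2), Phf23 (2) or Gabarap (1). The Acadvl promoter itself had 1 peak, 78 bp from the start, at 89.7. In Hep3B the window had 5 peaks, which 3.10% of genes reached. The nearest start was never that of ACADVL, although 1 peak (22.9) lay 33 bp from an ACADVL start and 9 bp from a DLG4 start. The strongest (96.8) was 115 bp from PHF23.

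Acadl, the gene of the long-chain dehydrogenase (chr1:66830839-66863277, minus strand), had 3 liver peaks, all at its own 5' end. They stood at percentiles 31.2, 28.1 and 2.75, at 531, 1549 and 156 bp from the start, with −log10 p of 10.6, 10.4 and 7.88. In MEFs 3 of its 4 peaks were nearest to Acadl: one at the start itself, 0 bp away (55.8), one 17181 bp into the gene (78.8) and one in the first part of the gene that was among the weakest of the list (0.0210). The strongest, at 90.1, lay 484 bp from Kansl1l. Hep3B had 1 peak in the ACADL window, 439 bp from KANSL1L (71.7), and the summit closest to the ACADL start was 54559 bp away. The 3 liver peaks of this gene overlapped MEF peaks, and no Hep3B peak marked its promoter.

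Acadm, which encodes the medium-chain dehydrogenase, had 10 liver peaks (gene at chr3:153922357-153944632, minus strand). The strongest of any window, with −log10 p of 21.0 and percentile 96.7, lay beyond the end of the gene at chr3:153911125-153913448, 116 bp from the start of Rabggtb, which encodes a subunit of the enzyme that attaches lipid anchors to Rab proteins. Among the 8 peaks nearest to Acadm, the promoter peak at chr3:153944139-153945330, 38 bp from the start, reached 20.0 (95.0). A peak 3813 bp upstream had 93.8, one 2829 bp upstream 79.0 and one 12885 bp into the gene 87.6. Among the promoter peaks of the 8 genes, that of Acadm had the highest percentile in liver and also in MEFs, where it stood at 98.4 (9.68), 9 bp from the start. In Hep3B the ACADM window held 1 peak, at the promoter, at 23.7.

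Hadha and Hadhb encode the α and β subunits of the trifunctional protein and are transcribed away from each other from starts that lie 86 bp apart in the mouse. Their liver windows held 12 and 14 peaks, of which 11 were the same, giving 15 in all. At least as many peaks as Hadha had were found at 5.35% of genes, and as many as Hadhb had at 3.58%. The shared promoter peak, at chr5:30154431-30156147, stood at 55.8 (−log10 p of 12.7), with its summit 49 bp from a Hadhb start and 159 bp from that of Hadha. Higher values lay inside the genes: 85.0 (16.9) in a Hadha intron 3112 bp from its start, and 81.0, 68.3 and 63.9 among 4 Hadhb peaks between 12353 and 15251 bp into that gene, the other at 1.57. In MEFs the windows had 4 peaks: the promoter stood at 53.7, and the other 3 were nearest to Adgrf3 (82.0) or to 3110082J24Rik (21.3 and 1.60). In Hep3B a single peak at the shared promoter stood at 13.7.

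Ehhadh, the gene of the peroxisomal bifunctional enzyme and a familiar target of PPARα, had 10 liver peaks (gene at chr16:21761287-21787807, minus strand), 8 of them nearest to its start. In the first part of the gene, from 1349 to 6820 bp, lay 6 intronic peaks. The one farthest in was the strongest (19.2, percentile 93.2), and the others stood at 84.2, 82.5, 71.1, 66.1 and 33.7. The promoter peak, 886 bp upstream and 1659 bp wide, reached 78.7. In MEFs there was no peak nearest to Ehhadh: the only one of its window (61.5) lay 57 bp from Map3k13. In Hep3B the same neighbour, MAP3K13, held the stronger of 2 peaks (78.1, also 57 bp away), and the EHHADH peak (7.69) lay at an internal start 27881 bp into the gene. Of the 8 genes, Ehhadh was the one with no liver peak that overlapped a MEF peak.

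The order of the genes by their strongest window peak therefore depended on the list. In liver it ran Acadm (96.7, nearest to Rabggtb), Cpt1a (96.3), Ehhadh (93.2), Hadha and Hadhb (85.0), Cpt2 (33.2), Acadl (31.2) and Acadvl (28.0). By peaks nearest to the gene itself, Cpt1a (96.3) stood above Acadm (95.0). A gap separated the first 5 from the last 3, and neighbours within the first 3 or the last 3 differed by at most a few percentile points, a distance whose error between samples is unknown. In MEFs the order was Acadm (98.4), Cpt2 (97.4), Cpt1a (96.5), Acadvl (95.5), Acadl (90.1), Hadhb (82.0), Ehhadh (61.5) and Hadha (53.7). The MEF values of Acadvl, Acadl, Hadhb and Ehhadh were those of peaks nearest to Dlg4, Kansl1l, Adgrf3 and Map3k13. In Hep3B the order was CPT1A (99.0), ACADVL (96.8), EHHADH (78.1), ACADL (71.7), CPT2 (53.1), ACADM (23.7) and, equal, HADHA and HADHB (13.7). The first 5 of these Hep3B values were those of peaks nearest to another gene. Over all genes, with genes without a peak set to 0, the strongest window peak had a median percentile of 24.3 (liver), 75.6 (MEFs) and 38.5 (Hep3B), and over the 8 genes of 85.0, 92.8 and 62.4.

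**Figure D3:**
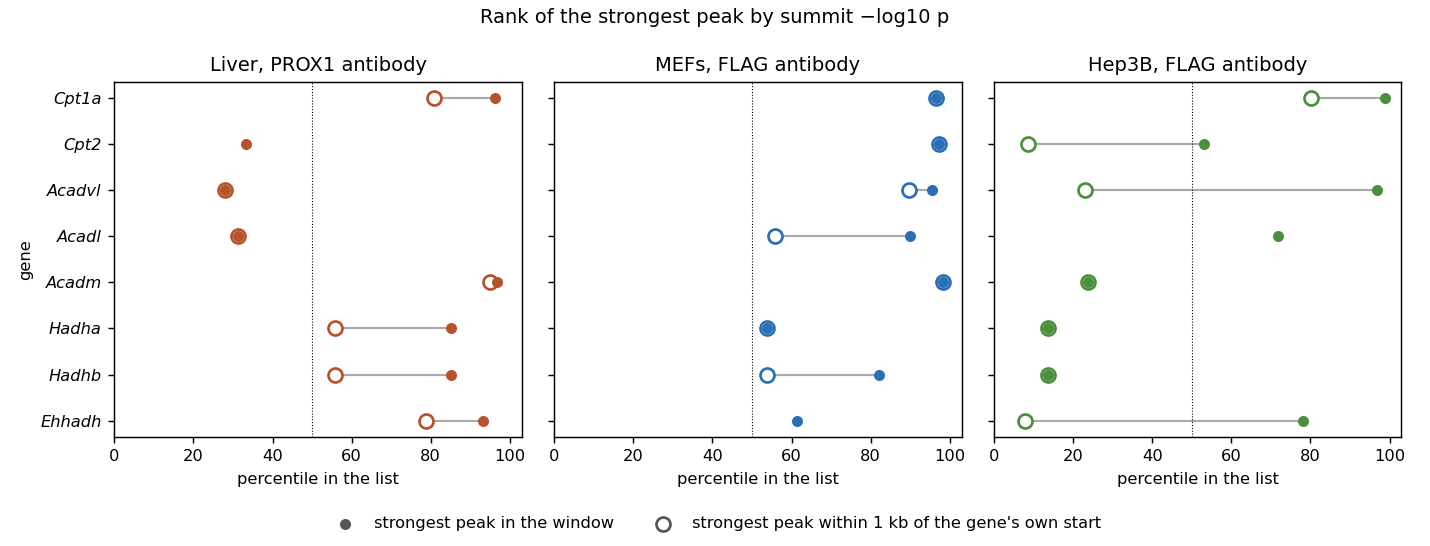
Percentile of the strongest peak in the window of each gene (filled) and of the strongest peak within 1 kb of one of its own coding starts (open) in liver, MEFs and Hep3B; a missing open circle means that no such peak was listed. The dotted line is the median of each list, and in liver Cpt2, Acadvl and Acadl lie below it whereas in MEFs all 8 genes lie above it. In MEFs the filled circles of Acadvl, Acadl, Hadhb and Ehhadh are peaks nearest to another gene. Over all genes the strongest MEF window peak had a median percentile of 75.6.

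Promoter peaks were found at 7 of the 8 genes in each list, where the share over all protein-coding genes was 26.5% (liver), 55.1% (MEFs) or 43.6% (Hep3B). The gene without one was Cpt2 in liver, Ehhadh in MEFs and ACADL in Hep3B. Cpt1a, Acadvl, Acadm, Hadha and Hadhb had a promoter peak in all 3, as did 21.9% of the 15754 gene symbols present in both annotations. The combination of liver and Hep3B without MEFs, that of Ehhadh, was found at 0.927% of symbols, that of MEFs and Hep3B without liver (Cpt2) at 23.7% and that of liver and MEFs without Hep3B (Acadl) at 6.26%. The promoter peaks of the genes themselves had median percentiles of 62.9 (liver), 89.7 (MEFs) and 18.7 (Hep3B). Over all promoter peaks of each list the medians were 32.1, 67.4 and 59.3.

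Away from promoters, the liver list held 34 peaks nearest to one of the 8 genes, with a median percentile of 65.0. MEFs held 3 such peaks and Hep3B 1. Per gene and peak they made up 50.0%, 10.0% and 5.88% of the pairs, beside 49.6%, 31.5% and 16.3% over the windows of all genes, so that in liver this share too was near that of any gene. By annotation, 29 of the 57 liver peaks were intronic, 10 intergenic and 4 in exons of non-coding transcripts of these genes, whereas 7 of the 29 MEF peaks and 0 of the 16 Hep3B peaks were intronic. The promoter share was 24.6% of the liver peaks in these windows, beside 14.5% of the whole liver list. It was 72.4% beside 32.0% in MEFs and 93.8% beside 58.2% in Hep3B. Peaks were wider than the list as a whole, with medians of 547, 1077 and 825 bp against 504, 646 and 634 bp.

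Liver and MEF peaks lie on the same genome and were compared by position, with an overlap of 1 bp or more. Of the 57 liver peaks, 13 (22.8%, interval 13.8 to 35.2) overlapped a MEF peak, beside 18.9% of the whole liver list. Most of this overlap was at promoters, with 10 of 14 promoter peaks and 3 of the 43 others, where the whole list had 67.6% and 10.7%. In the other direction, 12 of the 29 MEF peaks (41.4%, 25.5 to 59.3) overlapped a liver peak, beside 21.4% of that list. These were 9 of 21 promoter peaks and 3 of the 8 others, where the whole MEF list had 35.7% and 14.7%. Promoter peaks made up 72.4% of the MEF peaks in these windows, beside 32.0% of the list. When the genes were split at the gap in their liver order, a split made after the values were seen, 7 of the 12 peaks of Cpt2, Acadvl and Acadl and 6 of the 45 peaks of the other 5 genes overlapped a MEF peak. The former included 6 promoter peaks and the latter 8, and promoter peaks overlapped more often over the whole list, as given above. The median width was 395 bp for the peaks of Cpt2, Acadvl and Acadl and 645 bp for the others. The split was made on peak strength (median percentiles of 18.4 and 66.4), and whether width differed apart from strength was not tested.

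Sequence at the summits was described for 4 motifs within 50 bp on each side, on both strands. AGGTCA was found at 9 of the 57 liver peaks (15.8%, interval 8.54 to 27.4), close to its share of all liver peaks (16.5%). These 9 were spread over the windows of Cpt1a (1), Cpt2 (2), Acadvl (2, of which 1 at Gabarap), Acadm (1) and Hadha and Hadhb (3, of which 1 at Adgrf3). In MEFs 2 of 29 peaks held it, beside 6.00% of the list, and in Hep3B 0 of 16, beside 4.99%. CCAAT stood at 9 liver peaks (15.8%, beside 14.3%), 5 MEF peaks (17.2%, beside 16.3%) and 1 Hep3B peak (6.25%, beside 17.0%). ATCGAT was found at none of the member peaks, a count of 0 of 57 that leaves a share of up to 6.31% within the interval, and it was rare in the lists (1.09%, 0.323% and 0.306%). AGGTCA can share letters with the direct repeat described next.

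A direct repeat of AGGTCA with 1 base between the copies (DR1), the arrangement on which PPARα and its partner RXRα sit, was allowed 2 mismatches over its 12 fixed letters. It occurred at 2 of the 57 liver peaks (3.51%, interval 0.968 to 11.9), beside 5.92% of all liver peaks. Since this pathway is known for such repeats, both stretches are shown, a choice made after the values were seen, with the repeat in capitals (RefSeq GRCm38.p6, plus strand).
Ehhadh promoter, chr16:21788643-21788743: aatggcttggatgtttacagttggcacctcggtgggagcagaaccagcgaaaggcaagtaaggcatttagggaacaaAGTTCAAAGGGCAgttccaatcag
Hadhb intron, chr5:30159167-30159267: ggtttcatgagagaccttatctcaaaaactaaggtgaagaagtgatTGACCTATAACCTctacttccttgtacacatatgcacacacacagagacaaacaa
The Ehhadh repeat had 2 mismatches on the plus strand, 33 bp from the summit of the promoter peak. The Hadhb repeat had 1 mismatch on the minus strand and was centred 2 bp from a summit at percentile 25.5. A match is a string of letters and not a measured site of either receptor.

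The other genes of the pathway were taken from a list of 60, of which 58 were found in the human annotation. In liver 58 of 60 had a window peak, 45 (75.0%) a promoter peak and 25 at least 10 peaks. The shares over all genes were 57.4%, 26.5% and 7.98%. In MEFs 56 of 60 had a window peak and 50 (83.3%) a promoter peak, beside 75.5% and 55.1% of all genes. In Hep3B the counts were 43 of 58 (74.1%) and 32 (55.2%), beside 62.6% and 43.6% of all genes. By group, the share with a promoter peak ran in liver from 62.5% (5 of 8 ketone body genes) to 90.9% (10 of 11 peroxisomal genes), each above the 26.5% of all genes. In MEFs it ran from 50.0% (5 of 10 uptake and activation genes) to 100% (11 of 11 mitochondrial genes and 8 of 8 ketone body genes), and in Hep3B from 30.0% to 81.8%. The pathway list holds genes chosen for their known role, with earlier results of these data known.

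**Figure D4:**
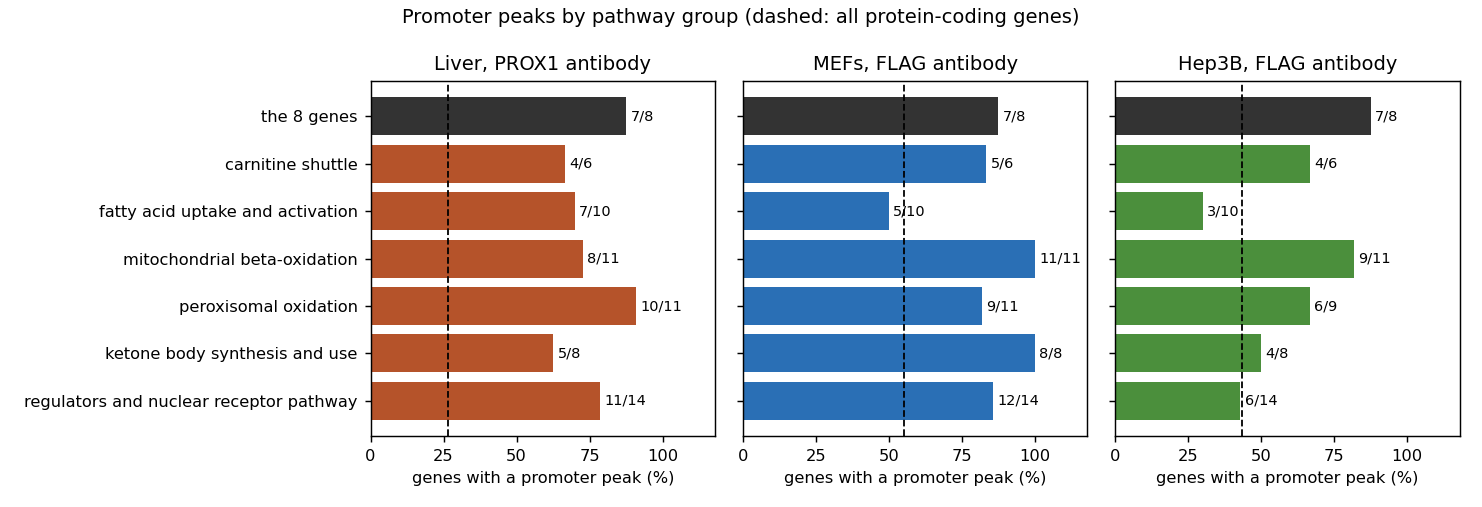
Percentage of genes that had a promoter peak, defined by a distance of at most 1 kb from a coding start (horizontal axis), for the 8 genes and for 6 groups of other pathway genes, in liver, MEFs and Hep3B, with the count at each bar. The dashed line is the share over all protein-coding genes (26.5%, 55.1% and 43.6%); all groups lie above it in liver, whereas the uptake and activation genes lie below it in both cultures and the regulators just below it in Hep3B (42.9%).

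The ketone body genes followed the liver pattern of the oxidation genes in part. Acat1, a thiolase gene, had 9 liver peaks, none of them within 1 kb of a coding start. The strongest (72.6) lay 1013 bp from the Acat1 start, just outside that limit. Bdh1, which makes 3-hydroxybutyrate, had 12 liver peaks and a promoter peak at 91.5, and Bdh2 had 3 (91.5). The monocarboxylate transporter genes Slc16a1 and Slc16a6 had 11 each (96.3 and 99.5), but the strongest in the Slc16a6 window lay nearest to Arsg, 2466 bp from its start, and the Slc16a6 promoter peak stood at 3.50. Oxct1 encodes the enzyme with which other tissues use ketone bodies and which hepatocytes lack. It had 0 liver peaks, 2 in MEFs (53.2, at the promoter) and 0 in Hep3B. Etfb, listed with the mitochondrial oxidation genes, also had 0 liver peaks, and 57.4% of all genes had at least 1.

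In MEFs the strongest window peaks were at 32.8 for Acat1, 88.5 for Bdh1, 76.4 for Bdh2, 76.2 for Slc16a1 and 92.3 for Slc16a6. In Hep3B they were at 61.5 for ACAT1, 50.9 for SLC16A1 and 46.0 for SLC16A6, and BDH1 and BDH2 had 0 peaks. The Slc16a6 values belonged to peaks nearest to Amz2 in MEFs and to AMZ2 in Hep3B. Its own promoter peaks stood at 24.3 and 7.92. All 8 ketone body genes had a MEF promoter peak, and 4 of 8 had one in Hep3B, beside 55.1% and 43.6% of all genes.

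Of the remaining pathway genes, those with the strongest liver peaks were Acaca (99.8), Slc16a6 (99.5, nearest to Arsg), Acox2 (99.2), Scp2 (99.0) and Acaa1a (98.9). Acaca encodes an acetyl-CoA carboxylase, whose product malonyl-CoA inhibits CPT1A. The last 3 act in peroxisomes: ACOX2 oxidises branched chains and bile acid precursors, SCP2 includes a thiolase, and ACAA1A is a thiolase as well. Acaca had 23 liver peaks and Scp2 35, numbers reached by 0.970% and 0.255% of genes. Ppara, the receptor gene itself, had 38 (0.182% of genes) and is named here after its values were seen. In MEFs the highest were Acaa1a (99.7, nearest to Oxsr1), Acacb (99.7), Acsl1 (99.5, nearest to Cenpu), Etfb (98.8) and Slc27a4 (98.5). In Hep3B they were PPARD (98.5), FGF21 (98.4, nearest to RASIP1), ACOT8 (98.3), ACACA (98.0, nearest to C17orf78) and ECI2 (95.0).

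By the strongest window peak, Acadm had the highest liver percentile of the 8 genes, through a peak 116 bp from the start of Rabggtb. Its own strongest peak stood at 95.0, below that of Cpt1a (96.3). Among the 15754 symbols, 3 genes had strongest window peaks closest to those of the Acadm window (96.7, 98.4 and 23.7). These were Usp30 (94.7, 97.4 and 24.5), Capzb (96.4, 98.0 and 27.4) and Dand5 (96.2, 94.2 and 25.2). Their distances from Acadm were 2.39, 3.66 and 4.45 percentile points over the 3 lists.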

How the data were processed

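CUT&RUN was measured in 22 samples of 6 groups, and the 3 deposited peak lists (liver PROX1, MEF FLAG, Hep3B FLAG) were used. According to the authors' methods and the submitters' processing notes, reads were trimmed with Trim Galore 0.6.6 and aligned with Bowtie 2 2.4.2 to mm10 or hg38. Consensus peaks over a group's replicates were called by the authors with Genrich 0.6.1, at mapping quality 30 or more, without chrM and PCR duplicates, at a minimum length of 5 bp and a q limit of 0.3. The command names no control library, and how IgG entered the lists is not given in the sources used here. Peaks of IgG samples or of single samples were not used here.

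Per peak the authors' caller deposited a score (mean area per base, capped at 1000), a signal (area under the significance curve), −log10 p and −log10 q at the summit, and, as another value, the summit offset in bp. None of the deposited values was normalised between lists, and the area starts at 500 in liver and at 200 in the others. Peaks were ranked by −log10 p within a list. The deposited score was not used.

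Summits were placed on GENCODE M21 or 44 genes with Python 3.11.15, pandas 2.3.3 and numpy 2.4.6. Windows were the gene body with 20 kb on each side, promoters 1 kb on each side of the start of a protein-coding transcript. Sequence came from RefSeq GRCm38.p6 and hg38. The counting steps were tested on simulated data. Every value is a description without a test. Counts and shares over the genes are given beside the same measure over all protein-coding genes or all peaks where one was computed; the comparison over all windows was added after seeing the data. Intervals are Wilson intervals (scipy 1.17.1).

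Named were the 8 genes with the peaks of their windows, the neighbours that share those peaks, the ketone body genes, the 5 other pathway genes with the strongest window peak per list, and the 3 genes closest to the member highest in liver. The genes, the pathway list of 68, the motifs and the alternatives (other windows, promoter widths, list sizes, area floor, q limit, ranking by area, definitions of overlap) were chosen with earlier results of these data known. Merging of peaks less than 1 kb apart and the DR1 stretches were added after seeing the data. A few genes and sequences that these rules name are not reported here.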

Additional observations from a re-analysis of the deposited data

How the results depend on the processing

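Of 69 recalculations of 14 results, 50 stayed close to the values given (within 1.5 times for a count, within the counting interval for a share or percentile) and 19 moved. With the gene body alone, liver peaks fell from 57 to 34, MEF peaks from 29 to 7 and Hep3B peaks from 16 to 5, and the genes with a peak became 3 in MEFs and 5 in Hep3B. Within 5 kb of the genes 12 MEF and 10 Hep3B peaks were left. Peaks nearest to one of the 8 genes numbered 10 in MEFs and 7 in Hep3B, at 5 genes in Hep3B. With the 14369 strongest peaks of each list, liver kept 18 peaks at 5 genes and promoter peaks at 3 genes, and MEFs 16 peaks and promoter peaks at 4 genes. Ranking by area put Cpt1a first in liver (98.0) and Acadvl first in MEFs (98.9) and in Hep3B (98.9, where CPT1A was first by −log10 p). Summits within 100 bp of each other made 5.26% of the liver peaks shared with MEFs. With peaks less than 1 kb apart merged, an alternative chosen after seeing the data, 34 liver regions were left, 7 for Cpt1a and 5 for Ehhadh, and 7.79% and 15.8% of genes had as many. No paired analysis was possible because each list pools its samples and no result comes from a test. Depth per sample is unknown, so the absence of a peak says only that none was listed.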

Other observations

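Among the 60 other pathway genes, 38 had a promoter peak in both liver and MEFs, 7 in liver only, 12 in MEFs only and 3 in neither. Over all 21951 mouse protein-coding genes these shares were 22.2%, 4.35%, 32.9% and 40.5%. The 7 of liver only, named after their values were seen, were Acaa1b, Acox2, Cd36, Fabp1, Fgf21, Slc27a2 and Slc27a5. Several of them act in hepatocytes: FABP1 is the fatty acid binding protein of the liver, SLC27A5 activates bile acids and FGF21 is a hormone of the fasted liver. Their strongest liver window peaks were at percentiles 95.3 for Acaa1b, 91.4 for Cd36, 97.9 for Fabp1, 97.5 for Fgf21, 85.7 for Slc27a2 (nearest to Hdc) and 94.2 for Slc27a5. Their strongest promoter peaks stood at 95.3, 90.5, 58.0, 45.2, 81.1 and 94.2 in the same order, and that of Acox2 at 97.9. Fabp1, Cd36 and Acaa1b had 0 peaks in their MEF windows. The 12 of MEFs only included Oxct1, Acat1 (with a liver peak 1013 bp from its start), Acads and Acaa2.

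Some neighbours recurred in the windows of the 8 genes in mouse and human, and those named here were picked for it. Starts of Dlg4, Phf23, Gabarap and Dvl2 near Acadvl, Tesmin near Cpt1a, Kansl1l near Acadl and Map3k13 near Ehhadh each lay within 1 kb of a peak in MEFs and in Hep3B. The strongest of these promoter peaks stood at 88.0, 90.5, 84.5, 79.9, 91.1, 90.1 and 61.5 in MEFs and at 93.1, 96.8, 39.9, 7.11, 99.0, 71.7 and 78.1 in Hep3B. In liver 2 of these 7 genes, Phf23 (19.7) and Gabarap (7.44), had such a peak in the windows. Of the 15754 symbols present in both annotations, 21.9% had promoter peaks in all 3 lists and 23.7% in MEFs and Hep3B without liver. These shares take every start of a gene, whereas the liver count covers only the windows. The 7 were named because they had promoter peaks in both cultures under the same symbol. Neighbours with different symbols in mouse and human were not matched. In the Cpt2 windows these were 0610037L13Rik (promoter peaks at 23.1 in liver and 87.1 in MEFs) and CZIB (53.1 in Hep3B). Rabggtb, next to Acadm, differed from these 7 genes. Its start carried the strongest liver peak of the windows (96.7) and also a peak in MEFs (64.4), and the human ACADM window held no peak nearest to it.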
